A study of Mus musculus with 12 samples.

Results

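Septins are cytoskeletal GTP-binding proteins, and in the deposited gene table their names had been turned into September dates, so that 1-Sep stands for Sept1, the gene of septin 1. The entries described here are those listed as 1-Sep, 2-Sep, 6-Sep, 7-Sep, 8-Sep, 9-Sep, 10-Sep and 11-Sep. These 8 names stood on 9 of the 54532 entries of the table, because 2-Sep occurred on a pair of entries. Septins carry the symbols of the GENCODE M21 annotation of GRCm38 (Sept1 and so on) below. A further 5 septin entries (3-Sep, 4-Sep, 5-Sep, 12-Sep and 14-Sep) held few or no counts and are given at the end of the account of the members.

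RNA was measured in 12 libraries, 3 from each of 4 subsets of CD4 T cells sorted from wild-type C57BL/6 mice, untreated, with spleen and lymph node cells mixed. All the mice carried a Foxp3-GFP reporter and a polyclonal T cell repertoire, and their age is not given in the sources used here. Naive cells were CD44low. Effector cells (Teff) were CD44high, lacked FOXP3 and had low CD73 and FR4. Anergic cells were CD44high and without FOXP3, with high CD73 and FR4 and with NRP1, and regulatory T cells (Treg) were FOXP3+ and CD25+. The sort defines the subsets, so a difference below belongs to a sorted phenotype and not to a measured function. Whether the 3 libraries of a subset came from different mice is not stated, and the p-values cover the spread among these libraries, which may be technical.

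Septins form rod-shaped complexes in which members of homology groups take set places: a SEPT2-group, a SEPT6-group and a SEPT7 subunit make hexamers, and a SEPT3-group subunit such as septin 9 extends them to octamers. The rods join into filaments at the cell cortex, where they bind membrane, actin and microtubules. In T cells septins are known for stiffening the cortex during crawling and for a part in cytokinesis. Members of 1 group can often replace each other in the complex, while SEPT7 has no close relative.

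The libraries held 6909035 to 9527897 counts. Levels are given as CPM, the count of a gene scaled to a common library size with TMM factors, as mean ± SD with n = 3 per subset. A set of 11 ribosomal, small RNA and related entries took 18.5 to 23.5% of the counts in 11 libraries and 30.1% in Anergic library 3. Of the sort markers, Foxp3 stood at 543 ± 16.3 CPM in Treg, 18.2 ± 2.82 in Anergic, 0.734 ± 0.331 in Teff and 1.36 ± 0.222 in Naive cells. The Anergic libraries, sorted as FOXP3-negative, thus held some Foxp3 RNA, and which cells it came from was not tested. Cd44 was lowest in Naive cells (35.3 ± 4.78 CPM), Nt5e (CD73), Izumo1r (FR4) and Nrp1 were highest in Anergic (256 ± 23.5, 424 ± 4.58 and 333 ± 34.99) and Il2ra (CD25) in Treg (709.9 ± 48.9). T cell genes summed to 2389 to 4266 CPM over the 12 libraries. All 8 B cell genes had counts somewhere, and their sum was 408 to 499 CPM in Treg and 180 to 283 CPM in the other libraries, most of it Ighm, whose means were 174 to 443 CPM. Cd22, of the same list, had 27.9 ± 1.499 CPM in Anergic, 12.6 ± 2.999 in Teff, 2.87 ± 0.777 in Treg and 0.101 ± 0.175 in Naive cells. Myeloid genes summed to 6.00 to 15.1 CPM, platelet genes, of which Gp9 had 0 counts, to 1.76 to 6.34, and erythroid genes to at most 0.911. CD8 T cell genes summed to 3.71 to 17.1 CPM and stromal and endothelial genes to 109 to 219, both highest in Naive, and plasma cell genes to 37.7 to 82.9, highest in Treg. Of the 6 stromal and endothelial genes only 1 had counts enough to be tested, so that sum rests mainly on 1 gene. The part of these markers in the septin levels was not tested. Without Anergic library 3, every septin call that involves Anergic cells was kept except Sept9 in Anergic against Treg.

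Of the 9 entries, 7 passed the filter on low counts and were tested: Sept1, Sept2, Sept6, Sept7, Sept8, Sept9 and Sept11. An edgeR quasi-likelihood test of any difference among the 4 subsets called 6 of them, all but Sept2, at a Benjamini-Hochberg adjusted p under 0.05, where 56.1% of the 13393 tested genes were called. The septins did not move as a block. By subset means, Sept9 was lowest in Naive cells, Sept7 was highest in Anergic and Treg cells, Sept1 was lowest in Anergic cells, Sept6 was lowest in Treg, and Sept8 and Sept11 were highest in Teff. The sizes ranged from 1.21-fold between the highest and lowest subset mean for Sept6 to 9.08-fold for Sept8.

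**Figure D1:**
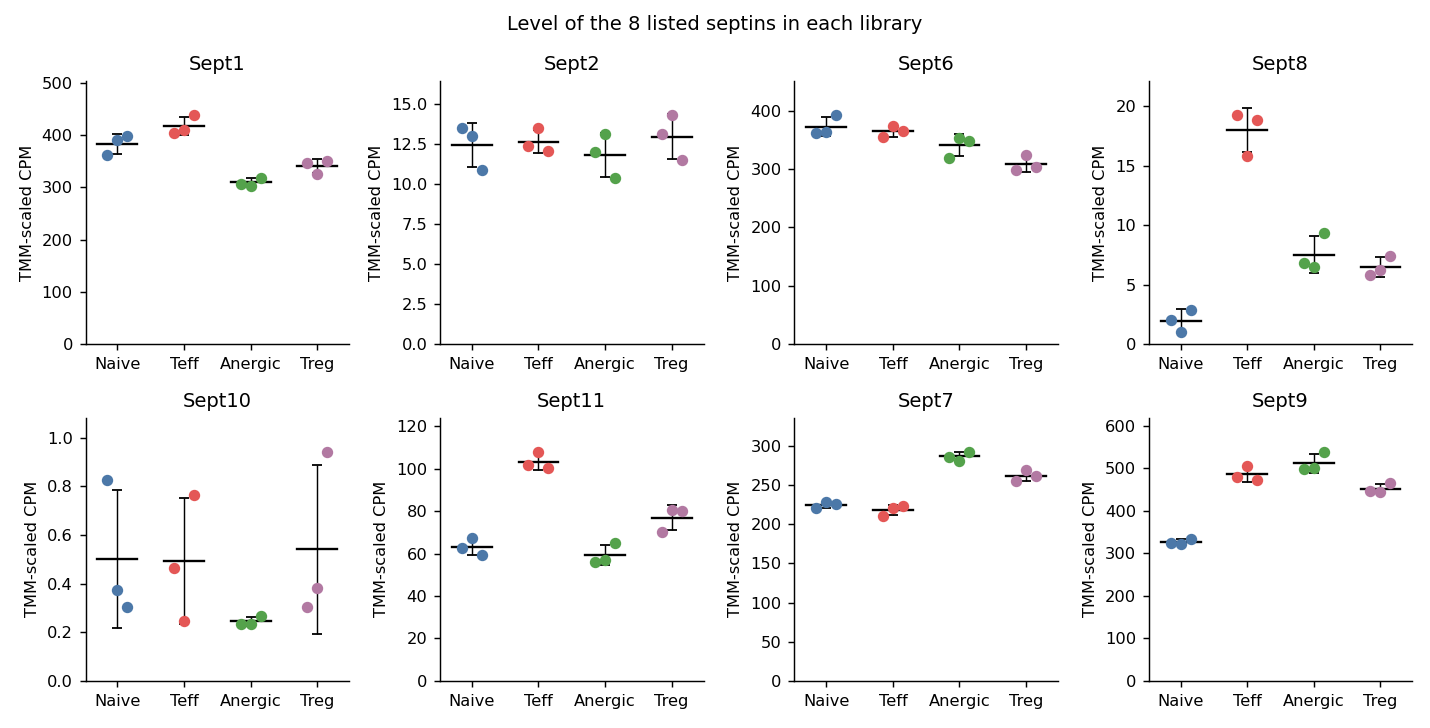
TMM-scaled CPM (y axes, each starting at 0) of the 8 listed septins in the 12 libraries (points), with the mean (line) and SD (bar) of the 3 libraries of each subset. Sept8 ran from 0.991 CPM in a Naive library to 19.2 in a Teff library, whereas the points of Sept2 overlapped between all subsets.

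Levels of different septins were compared per kilobase of annotated exon, since longer transcripts give more reads. Sept1 stood first, at a mean of 131 CPM per kb over the 12 libraries, above 98.3% of the 13289 tested genes with a length. Sept9 followed at 58.8 CPM per kb (96.0%), then Sept6 at 35.1 (92.8%), Sept7 at 21.3 (87.2%) and Sept11 at 7.98 (65.9%). Sept2 at 1.57 CPM per kb (25.0%) and Sept8 at 1.40 (22.9%) were far below, and Sept10 at 0.143 was below the filter. These ranks use the summed exon length of all annotated transcripts, which overstates the length of any single one. Among the listed septins that length ran from 2763 bases for Sept1 to 11631 for Sept7, so the order depends on it. By CPM alone Sept9 was above Sept1 in Anergic (513 against 310), Teff and Treg, and below it in Naive (327 against 383). The rank of Sept2 is uncertain, since 41.8% of its exon length is shared with another gene of that name. Divided by the unshared exon length alone, its counts gave 2.69 CPM per kb. Reads in the shared part may not have been counted.

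Promoter sequences of RefSeq (GRCm38.p6) were at hand for 9 septins, in 19 windows, and 3 are shown for members whose level differed between subsets: Sept8, with the widest range, and Sept7 and Sept9, whose windows hold AP-1 letters. BATF, after which the series is named, belongs to the AP-1 family. Each is the 250 bases before an annotated start, 5′ to 3′ on the gene's strand, free of annotated exons, and capitals mark TGANTCA, the AP-1 consensus on either strand. The Sept8 and Sept9 windows lie inside the GENCODE bounds of their genes, before internal starts, and the Sept7 window lies before its gene. Counts per gene do not show which start was used.
Sept8 chr11:53519486-53519735 (+): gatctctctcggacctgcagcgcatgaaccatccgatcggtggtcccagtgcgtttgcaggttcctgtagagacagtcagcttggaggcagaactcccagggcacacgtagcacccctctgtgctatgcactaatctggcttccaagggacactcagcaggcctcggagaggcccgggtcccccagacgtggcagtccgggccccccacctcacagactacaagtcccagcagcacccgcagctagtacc
Sept7 chr9:25251741-25251990 (+): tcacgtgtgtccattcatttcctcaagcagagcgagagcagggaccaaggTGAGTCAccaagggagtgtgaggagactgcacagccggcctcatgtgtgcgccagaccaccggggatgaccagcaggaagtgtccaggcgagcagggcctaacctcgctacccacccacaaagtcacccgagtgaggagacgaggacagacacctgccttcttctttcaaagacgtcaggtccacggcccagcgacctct
Sept9 chr11:117331465-117331714 (+): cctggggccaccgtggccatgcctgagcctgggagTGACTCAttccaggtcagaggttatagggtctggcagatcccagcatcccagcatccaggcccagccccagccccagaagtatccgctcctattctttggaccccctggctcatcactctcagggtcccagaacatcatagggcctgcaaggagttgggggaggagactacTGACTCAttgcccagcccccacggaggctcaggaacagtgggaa
The Sept9 window held TGACTCA beginning 215 and 44 bases before the start, and the Sept7 window TGAGTCA beginning 200 bases before it. Of the 32851 promoter windows of this length listed, 6.75% held at least 1 such match and 0.338% at least 2. Among the 19 septin windows, 2 held a match, the printed Sept7 and Sept9 ones, which were picked for it. No other septin window held one, nor did any hold the letters TGTGGT, known from RUNX sites, or GGTGTGA, known from T-box sites (14% and 3.33% of all windows, both strands). Sept1, Sept3, Sept5 and Sept6 had no window, so none of this covers them. The GC box letters GGGCGG stood in 9 of the 19 septin windows, some of which overlap, against 32.7% of all. The motifs and the windows to print were chosen with the data at hand, and a match says only that the letters are there.

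Sept1 encodes a SEPT2-group subunit and had the highest measured level per kilobase of the septins here. Its gene lies on chromosome 7, 127214447 to 127233130, on the minus strand of GRCm38, and a neighbour on the other strand, Zfp553, covers 2.53% of its exon length. Its level was 404, 409.6 and 438 CPM in the Teff libraries, 362, 391 and 398 in Naive, 325, 346 and 350.4 in Treg and 303.5, 307 and 319 in Anergic. The 4 sets of 3 libraries did not overlap. Anergic cells were 1.35-fold lower than Teff (log2 change -0.43, SE 0.0621, adjusted p = 8.03e-06 by edgeR's quasi-likelihood test) and 1.24-fold lower than Naive (log2 change -0.31, SE 0.0623, adjusted p = 0.000250). Treg cells were 1.22-fold lower than Teff (adjusted p = 0.000678) and 1.13-fold lower than Naive (adjusted p = 0.0371). That last call was lost in 7 of 15 alternatives, among them leaving out Naive replicate 2 (0.113) or 3 (0.129) or any of Treg replicates 1 (0.0631), 2 (0.156) and 3 (0.0549). Anergic against Treg (log2 change -0.14, SE 0.0622, adjusted p = 0.100) and Teff against Naive (log2 change 0.12, SE 0.0619, adjusted p = 0.136) did not pass.

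Sept2 encodes the founding member of the same group, and its level here is uncertain. GENCODE M21 holds a pair of genes under this name on the plus strand of chromosome 1, 93478964 to 93510260 and 93478993 to 93509733. All of the exon length of the shorter (100%) lies in exons of the longer, and 41.8% of the exon length of the longer is shared. Of the 2-Sep entries 1 had 72 to 130 counts per library and the other had 0 counts in all 12. How the entries match the genes, and what the counting did with reads in shared exons, is stated in no source used here. The counted entry had 12.5 ± 1.37 CPM in Naive, 12.7 ± 0.736 in Teff, 11.8 ± 1.39 in Anergic and 12.99 ± 1.40 in Treg cells (SD, n = 3). Its libraries overlapped in all 6 comparisons, the log2 fold changes lay between -0.13 ± 0.143 SE (Anergic against Treg) and 0.05 ± 0.145 SE (Treg against Naive), and the test over 4 subsets gave an adjusted p of 0.862 (edgeR).

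Sept6 encodes the leading SEPT6-group subunit, which pairs with SEPT7 in the rod. It lies on chromosome X, 36911326 to 36991794, minus strand, and Gm15008 on the other strand covers 3.12% of its exon length. The libraries read 362, 364 and 391.9 CPM in Naive, 355, 365 and 373 in Teff, 319, 349 and 354 in Anergic and 299, 303 and 323 in Treg. Naive and Teff libraries overlapped, and all Treg libraries lay below those of Naive and Teff. Treg cells were 1.21-fold lower than Naive (log2 change -0.27, SE 0.0631, adjusted p = 0.00153) and 1.18-fold lower than Teff (log2 change -0.24, SE 0.0630, adjusted p = 0.00494). Anergic cells did not pass against Naive (adjusted p = 0.0966), Teff (0.281) or Treg (0.0939), and these calls changed with some settings. Against Treg they passed without Anergic replicate 1 (adjusted p = 0.0301), by DESeq2 (0.0436) and with the replicate number as a block (0.0376), against Naive with the block (0.0400) and by total counts (0.0450), and against Teff by total counts (0.0387).

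Sept8 encodes a further SEPT6-group subunit and had the widest range of the tested septins. Its gene spans chromosome 11, 53519257 to 53549565, on the plus strand, with no other annotated exon over its own. It had 15, 8 and 19 counts in the Naive libraries, 166, 128 and 148 in Teff, 58, 55 and 70 in Anergic and 58, 49 and 63 in Treg, so its Naive level rests on few reads. As CPM these were 2.07, 0.991 and 2.88 in Naive, 19.2, 15.9 and 18.9 in Teff, 6.82, 6.46 and 9.32 in Anergic and 5.86, 6.21 and 7.41 in Treg. All Teff libraries were above, and all Naive libraries below, every library of the other subsets, while Anergic and Treg overlapped. Teff exceeded Naive by 9.27-fold (log2 change 3.21, SE 0.246, adjusted p = 1.80e-10), Anergic by 2.40-fold (log2 change of Anergic against Teff -1.26, SE 0.193, adjusted p = 1.76e-05) and Treg by 2.77-fold (log2 change of Treg against Teff -1.47, SE 0.195, adjusted p = 1.88e-06). Anergic and Treg cells were also above Naive, by 3.86-fold (adjusted p = 2.27e-06) and 3.34-fold (adjusted p = 2.03e-05). Anergic against Treg did not pass (log2 change 0.21, SE 0.214, adjusted p = 0.507).

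Sept11 encodes another SEPT6-group subunit, with a level per kilobase below that of Sept6 and above that of Sept8. It lies on chromosome 5, 93093437 to 93176447, plus strand, free of other annotated exons. Teff libraries read 100.2, 102 and 108 CPM, Treg 70.03, 80.07 and 80.4, Naive 59.3, 62.6 and 67.2 and Anergic 56.1, 56.9 and 64.8. Teff stood apart above all others and Treg above the overlapping Naive and Anergic libraries. Teff exceeded Naive by 1.63-fold (log2 change 0.71, SE 0.0764, adjusted p = 6.34e-08), Anergic cells by 1.74-fold (log2 change of Anergic against Teff -0.80, SE 0.0761, adjusted p = 1.23e-08) and Treg by 1.35-fold (adjusted p = 6.95e-05). Anergic cells were below Treg (log2 change -0.37, SE 0.0772, adjusted p = 0.000496), and Treg were 1.22-fold above Naive (adjusted p = 0.00652). Anergic and Naive cells did not differ by the test (log2 change -0.09, SE 0.0796, adjusted p = 0.361).

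NK and innate-like T cell markers were also highest in the Teff libraries, in which Sept8 and Sept11 were highest. The 7 genes of that list, 5 of them tested and none at 0 counts, summed to 194 to 260 CPM in Teff, 42.9 to 47.1 in Anergic, 5.16 to 6.32 in Naive and 4.23 to 5.70 in Treg. Their part in the septin levels was not tested. In sorted bulk samples more cells that carry a transcript and more transcript per cell cannot be told apart.

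Sept10, the other SEPT6-group member listed, had 2 to 8 counts in each library and 11 counts over the Naive, 12 over the Teff, 6 over the Anergic and 14 over the Treg libraries. Its subset means were 0.245 to 0.541 CPM. It was below the filter on low counts and was not tested. It lies on chromosome 10, 59141627 to 59221847.

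Sept7 encodes the subunit that every septin rod contains. It lies on chromosome 9, 25252439 to 25308571, plus strand, and Gm48272 on the other strand covers 2.11% of its exon length. Its level was 281, 286 and 292 CPM in Anergic, 255, 262 and 269 in Treg, 221, 226 and 228 in Naive and 210.2, 220.1 and 223 in Teff. The Anergic libraries lay above the Treg ones, and both sets above the overlapping Naive and Teff libraries. Anergic cells exceeded Teff by 1.31-fold (log2 change 0.39, SE 0.0582, adjusted p = 1.04e-05), and they were 1.27-fold above Naive (log2 change 0.35, SE 0.0583, adjusted p = 2.72e-05). Treg cells exceeded Teff by 1.20-fold (adjusted p = 0.000967) and Naive by 1.16-fold (adjusted p = 0.00508). Anergic against Treg did not pass (log2 change 0.13, SE 0.0577, adjusted p = 0.0950), nor did Teff against Naive (log2 change -0.05, SE 0.0587, adjusted p = 0.582).

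Sept9 encodes the SEPT3-group subunit that links hexamers into octamers. Its gene spans chromosome 11, 117199661 to 117362325, plus strand, with no overlapping exon of another gene. The libraries read 499, 501 and 538 CPM in Anergic, 473, 479 and 505 in Teff, 446, 447 and 466 in Treg and 323, 325 and 333 in Naive. All 3 Naive libraries lay far below the 9 others. Against Naive, Anergic cells were 1.57-fold (log2 change 0.65, SE 0.0599, adjusted p = 3.16e-09), Teff 1.48-fold (log2 change 0.57, SE 0.0599, adjusted p = 4.23e-08) and Treg 1.38-fold higher (log2 change 0.47, SE 0.0599, adjusted p = 9.40e-07). Anergic cells were 1.13-fold above Treg (log2 change 0.18, SE 0.0592, adjusted p = 0.0225), a call lost without Anergic replicate 3 (0.0889), Treg replicate 1 (0.0634) or Treg replicate 2 (0.0655), and with scaling by total counts (0.639; 0.00221 to 0.639 over all alternatives). Anergic against Teff (adjusted p = 0.379) and Treg against Teff (adjusted p = 0.218) did not pass.

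The comparisons between subsets share libraries, and each is given with its own background. Against Naive, 3 of the 7 tested septins were called in Teff, all higher (34.9% of all tested genes were called), 4 in Anergic, 3 higher and Sept1 lower (46.2%), and 6 in Treg, 4 higher and Sept1 and Sept6 lower (32.8%). Sept8 and Sept9 were higher in each of the 3. Against Teff, 4 were called in Anergic, Sept7 higher and Sept1, Sept8 and Sept11 lower (26.6%), and 5 in Treg, the same 4 in the same directions and Sept6 lower (29.1%). Between Anergic and Treg 2 were called, Sept9 higher and Sept11 lower in Anergic (31.0%), and this count was 1 to 3 with a library left out, 4 by DESeq2 and 5 with the replicate number as a block. Except for the calls in Treg against Naive for Sept1 and in Anergic against Treg for Sept9, the 24 calls held in every alternative, scaling by total counts included.

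**Figure D2:**
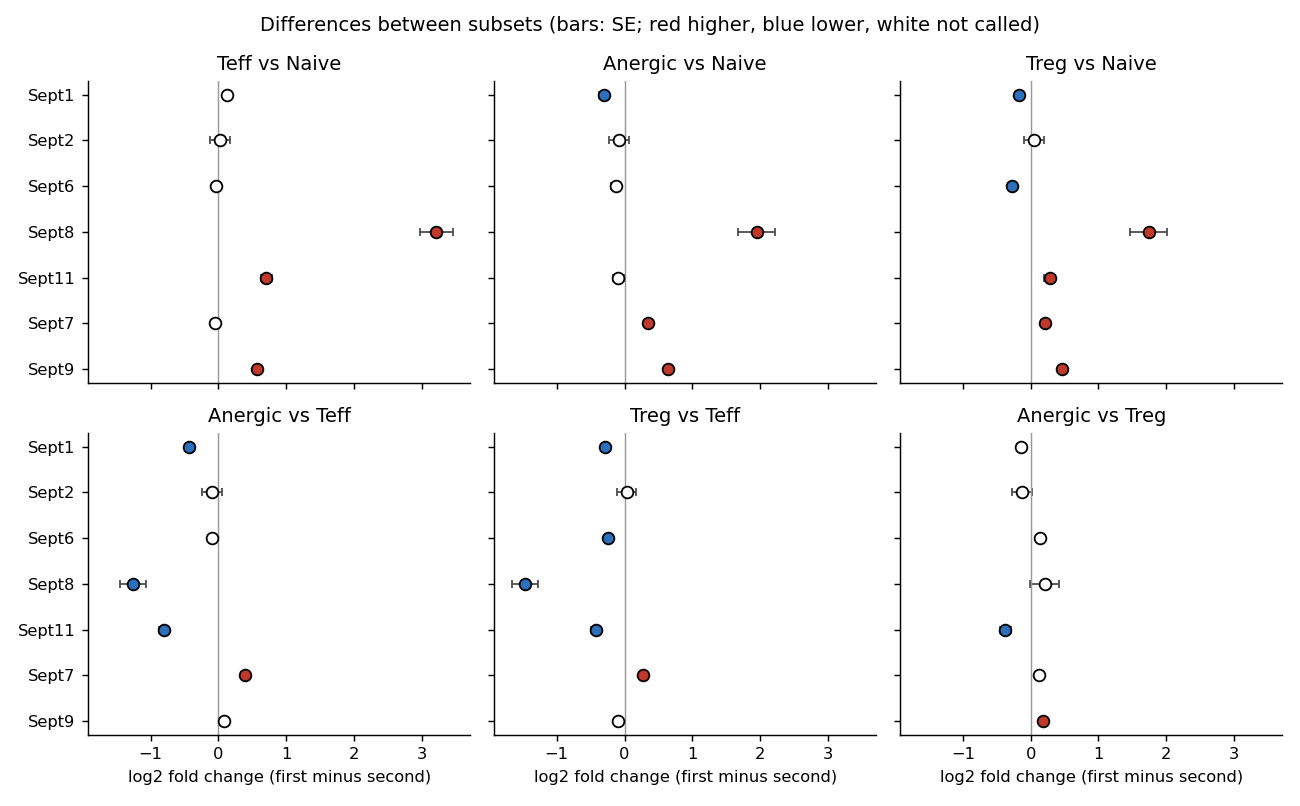
Log2 fold changes (x axis, first subset minus second) of the 7 tested septins in the 6 comparisons, with SE bars. Filled points passed the test (red higher, blue lower). Sept8 in Teff against Naive is the farthest from 0, at 3.21.

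Scaling by total counts alone moved the median log2 fold change of all genes in every comparison. The median became -0.13 in Anergic against Treg, -0.099 in Anergic against Teff and 0.086 in Treg against Naive. It became 0.059 in Teff and -0.040 in Anergic against Naive, and 0.038 in Treg against Teff. That scaling moved the split of calls over all genes from 1864 higher and 1702 lower to 1218 and 2276 in Anergic against Teff. The split went from 2096 and 2054 to 1324 and 3027 in Anergic against Treg, and from 2538 and 1858 to 2925 and 1126 in Treg against Naive. That scaling also moved 3342 and 2851 to 2878 and 2998 in Anergic against Naive, and 2570 and 2100 to 2718 and 1485 in Teff against Naive. The total-count values of the septins should be read against that shift.

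Other septins were barely present. Sept4, a SEPT2-group member, had 48 counts over the 12 libraries, 0 to 11 in each. Sept5, of the same group, had 13 counts, but Gp1bb and Gm49601 on its strand share 83.7% of its exon length, and Sept3, a neuronal SEPT3-group member, had 4, all of them in Anergic libraries. Sept12 and Sept14, known from testis, had 0 counts, which allows a level of up to 0.0308 CPM (3 counts over all libraries, counting error only). None of these 5 was tested.

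Summed per length over all septins, and not counting the second Sept2 entry, the level was 287 ± 6.56 CPM per kb in Teff against 248 ± 8.70 in Naive, 248 ± 7.62 in Anergic and 248 ± 4.75 in Treg (SD, n = 3). The make-up differed between subsets with little spread among libraries. The SEPT3 group, in effect Sept9, made up 17.5 ± 0.504% of the sum in Naive, 22.4 ± 0.954% in Teff, 24.1 ± 0.189% in Treg and 27.3 ± 0.356% in Anergic. SEPT7 made up 6.53 ± 0.0587% in Teff, 7.81 ± 0.173% in Naive, 9.08 ± 0.337% in Treg and 9.92 ± 0.190% in Anergic cells. The SEPT2 group, in effect Sept1, went the other way, from 56.6 ± 0.911% in Naive over 53.3 ± 1.29% in Teff and 50.4 ± 1.26% in Treg to 45.8 ± 0.552% in Anergic. The SEPT6 group lay between 16.4 ± 0.875% (Treg) and 18.1 ± 0.359% (Naive). Within it Sept8 took 5.82 ± 0.697% in Teff and 0.721 ± 0.329% in Naive, and Sept11 took 21.4 ± 0.582% and 14.9 ± 1.296%. These shares depend on the exon lengths and on the uncertain Sept2 count, and they carry no test. They are parts of the same sum, so a larger share of a group lowers the others. Sept1 itself stood at 151 ± 6.48 CPM per kb in Teff and 139 ± 6.97 in Naive, although the share of its group was lower in Teff.

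**Figure D3:**
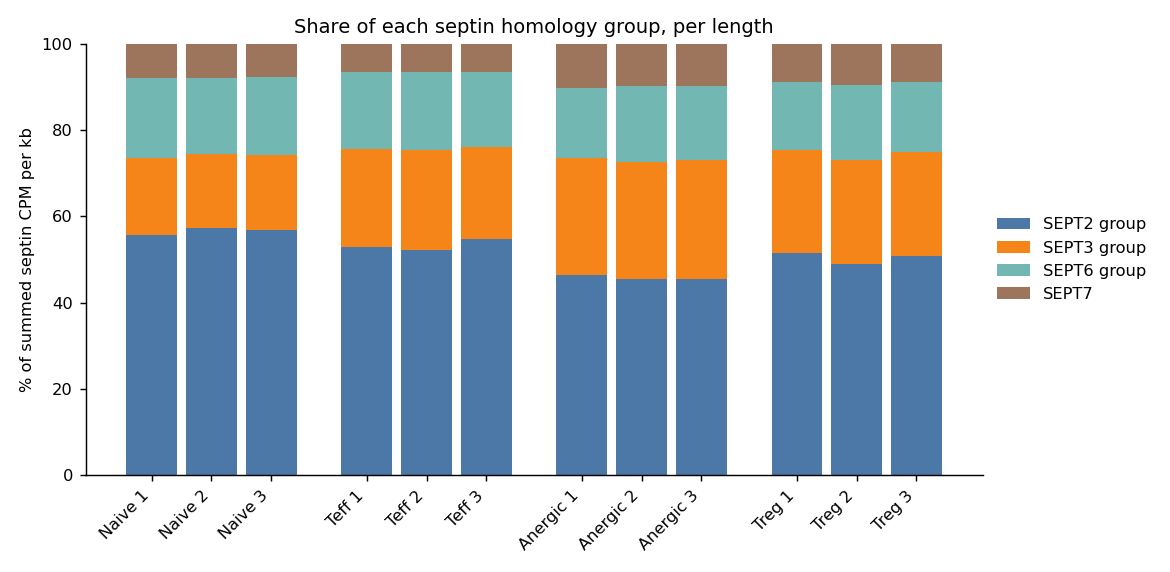
Share of each septin homology group in the summed septin CPM per kb (y axis, percent) in each of the 12 libraries. The SEPT3 group (orange) grows from 17.1 to 18.04% in the Naive libraries to 27.1 to 27.7% in the Anergic ones.

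The genes most like each septin over the 12 libraries, by Pearson's r of log2 CPM among 7328 genes that averaged 10 CPM or more, are given as a description, since the libraries of a subset share their sort. Closest to Sept9 were Fbxw8 (r = 0.988), Ehmt2, a histone methyltransferase gene (0.987), and Rnf19b, a ubiquitin ligase gene (0.986). Closest to Sept7 were Zfp280b (0.986), Ephx1, an epoxide hydrolase gene (0.972), and Hivep3 (0.971), whose mean level spanned far more, with 30.02 ± 3.24 CPM in Teff, 30.9 ± 1.60 in Naive and 196 ± 5.75 in Anergic cells. Closest to Sept11 were Ctsw, a protease gene of cytotoxic lymphocytes (0.983), Epsti1 (0.966) and Smad3, a TGF-beta signal transducer (0.963). Closest to Sept8 were Dstn, an actin-depolymerising factor gene (0.973), Rora, a nuclear receptor gene (0.970), and Cenpe, a mitotic kinesin gene (0.966). For Sept1 they were Iqgap2, a scaffold protein gene (0.951), Arhgap30, a GTPase-activating protein gene (0.947), and Padi2 (0.946). For Sept6 they were Ap1b1 (0.939), App (0.936) and Xylt2 (0.929), and for Sept2, which did not differ between subsets by the test, the highest was 0.810 (Snrnp27).

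Genes that act with septins were taken as 5 lists, and their counts and medians are a description with no test of the list. The median log2 fold change over all genes lay between 0.00 and 0.01 in each of the 6 comparisons. Cytokinesis genes had 15 tested members of 16. All 15 rose in Teff against Naive (19.2% of all genes were higher), 14 in Anergic against Naive (25.0%) and 14 in Treg against Naive (2538 of 13393 genes), with list medians of 2.68, 2.17 and 1.85 on the log2 scale. Mki67, a marker of cycling cells, stood at 3.44 ± 0.733 CPM in Naive, 144 ± 15.4 in Teff, 102 ± 25.8 in Anergic and 67.3 ± 3.58 in Treg. Against Teff, 7 fell in Anergic (12.7% of all genes were lower, list median -0.53) and 11 in Treg (14.1%, list median -0.85), and none rose. In Anergic against Treg 3 rose and none fell (15.6% and 15.3% of all genes, list median 0.30). Sept8 was likewise highest in Teff and lowest in Naive, without a difference between Anergic and Treg that passed, and the part of cycling cells in its level was not tested.

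The list of septin partners and regulators had 10 tested members of 13, and it shares Anln and Cit with the cytokinesis list. Cdc42ep3, one of the Borg proteins, which bind CDC42 and septins, was highest in Teff, where it had 34.2 ± 2.66 CPM, and lowest in Naive cells with 12.3 ± 0.430. Anergic cells had 20.4 ± 0.823 CPM of it and Treg 15.1 ± 0.359. Teff exceeded Naive by 2.77-fold (log2 change 1.47, SE 0.109, adjusted p = 1.01e-10). Arhgef18, an exchange factor that binds septin 9, was highest in Naive, with 426 ± 11.4 CPM there, 299 ± 11.8 in Teff, 262 ± 3.35 in Treg and 191 ± 11.2 in Anergic cells. It was 2.24-fold lower in Anergic than in Naive cells (log2 change -1.16, SE 0.0624, adjusted p = 1.52e-13). In Anergic against Teff 1 member rose, the kinase gene Rock2 (1.28-fold, adjusted p = 0.000297), and 4 fell (13.9% of all genes were higher and 12.7% lower). In Treg against Teff 1 rose, again Rock2 (1.26-fold), and 5 fell (2006 and 1888 of the 13393 genes). Against Naive, 4 rose and 1 fell in Teff (34.9% of all genes were called in either direction), 6 and 1 in Anergic (46.2%) and 2 and 1 in Treg (32.8%). In Anergic against Treg 3 rose and 1 fell (31.0%). The list medians were -0.10 in Anergic and -0.19 in Treg against Teff, 0.10 in Teff, 0.19 in Anergic and 0.08 in Treg against Naive, and 0.16 in Anergic against Treg.

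Cortical actomyosin genes had 23 tested members of 25. In Anergic against Teff 2 rose and 14 fell (13.9% of all genes were higher and 12.7% lower), with a list median of -0.20 on the log2 scale. Among them Myo1f, a myosin of leukocytes, was at 0.781 ± 0.115 CPM in Naive, 201 ± 11.8 in Teff, 63.6 ± 5.58 in Anergic and 32.7 ± 1.75 in Treg, and Diaph1, a formin gene, was 1.59-fold lower in Anergic than in Teff (adjusted p = 4.12e-08). Myh9, the main non-muscle myosin heavy chain, was 1.18-fold higher in Anergic than in Teff (log2 change 0.23, SE 0.0735, adjusted p = 0.0199). In Treg against Teff 2 rose and 9 fell (29.1% of all genes were called in either direction, list median -0.08), and in Anergic against Treg 7 rose and 8 fell (31.0%, list median -0.06). Against Naive, 8 rose and 3 fell in Teff (34.9%, list median 0.15), 3 and 8 in Anergic (46.2%, list median -0.07) and 4 and 6 in Treg (32.8%, list median -0.04). Actn1, a crosslinker of actin filaments, was highest in Naive cells at 750.3 ± 48.1 CPM and 3.62-fold lower in Anergic cells (adjusted p = 1.44e-12).

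Septins are also known to organise store-operated calcium entry, in which STIM proteins of the endoplasmic reticulum open ORAI channels. That list had 10 tested members of 11. In Anergic against Teff 2 rose, the channel gene Orai1 (1.42-fold, adjusted p = 0.000301) and the sensor gene Stim2 (1.24-fold, adjusted p = 0.00538), and 5 fell (26.6% of all genes were called in either direction, list median -0.17). In Treg against Teff 1 rose and 4 fell (29.1%, list median -0.22), among them Stim1, 1.53-fold lower (adjusted p = 2.53e-08). In Anergic against Treg 5 rose and 2 fell (31.0%, list median 0.21). Against Naive, 2 rose and 2 fell in Teff (34.9%, list median -0.02), 3 and 5 in Anergic (46.2%, list median -0.19) and 2 and 6 in Treg (32.8%, list median -0.33).

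Tubulins, the subunits of the microtubules that septins bind, had 10 tested genes of 13. Against Naive, 4 fell and none rose in Teff (15.7% of all genes were lower, list median -0.31), 6 fell and none rose in Anergic (21.3%, list median -0.27), and 2 fell and 1 rose in Treg (32.8% of all genes were called in either direction, list median -0.05). In Anergic against Teff 1 rose and 1 fell (26.6%, list median -0.16). In Treg against Teff 3 rose and none fell (2006 of 13393 genes were higher, list median 0.17). In Anergic against Treg 3 fell and none rose (15.3% of all genes were lower, list median -0.14).

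**Figure D4:**
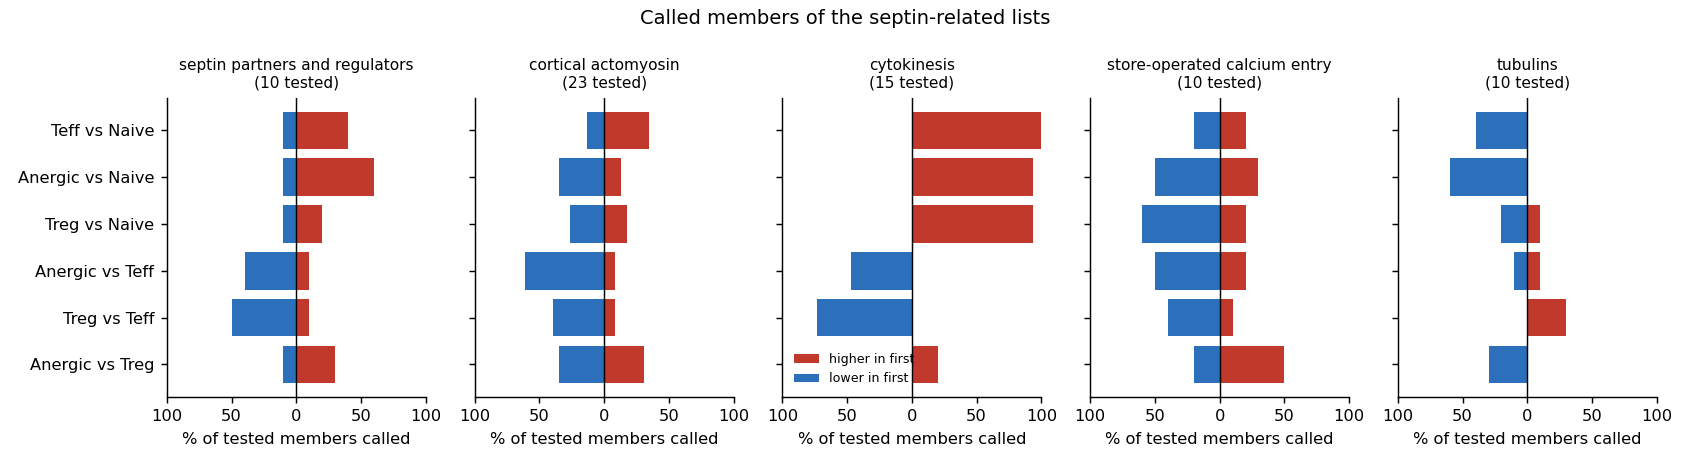
Percent of the tested members of each list called higher (red, right) or lower (blue, left) in the first subset of each comparison. The cytokinesis list stands to the right in all 3 comparisons with Naive, with 15, 14 and 14 of 15 members higher, and to the left in both comparisons with Teff.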

How the data were processed

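The authors deposited unnormalised read counts per gene, with a column for each library. They used, per the labels and design text, Trimmomatic, HISAT2, SAMtools, featureCounts and edgeR on stranded total RNA libraries. The submitters' processing notes name GRCm38 (mm10) and deepTools 3.5.1.0.1. No source used here states the annotation or strand setting used in counting, which leaves reads in overlapping genes uncertain. Column names and labels gave each library its subset. Septin numbers were read from the date-like names.

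Tests on the counts used edgeR 4.0.16 under R 4.3.3 (glmQLFit and glmQLFTest, TMM, filterByExpr, subset means over all 12 libraries, 13393 genes). P-values are two-sided and Benjamini-Hochberg adjusted over all tested genes, and called means under 0.05. SE is the log2 fold change divided by the square root of F. The procedure was tested on simulated counts for Anergic against Teff alone. Those held no log2 changes as small as most of the septin changes called, so that test does not bear on them. Exon lengths, positions and overlaps came from GENCODE M21, which matched 98.4% of entries by name. The members, lists and tests were chosen with earlier results of these data known. The text names all septins, up to 2 risen and 2 fallen members of a list per comparison, and the 3 genes most correlated with each tested septin (log2 CPM, prior count 2; predicted, RIKEN, mitochondrial, ribosomal, receptor-segment and small RNA names left out). Alternatives were DESeq2 1.42.0, limma 3.58.1 voom, RLE and total-count scaling, no filter, 5 CPM in 3 libraries, only the compared subsets, removal of 11 abundant entries, a replicate block and leaving out each library.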

Additional observations from a re-analysis of the deposited data

How the results depend on the processing

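Of 630 recomputed septin fold changes, 598 kept their direction and their side of the threshold, 11 lost the call, 10 gained one and 11 changed sign. Of the 24 calls, 22 were kept in all alternatives. The sign changed for no call. Among values that did not pass, Sept2 turned to 0.0043 in Anergic against Naive without Anergic replicate 3, to -0.0611 and -0.0266 in Teff against Naive without Naive replicate 3 and Teff replicate 2, to -0.0338 and -0.0198 in Treg against Naive without Naive replicate 3 and Treg replicate 2, and to -0.0432 in Treg against Teff without Treg replicate 2. Sept6 in Teff against Naive turned to 0.0221 by total counts and 0.0090 without Naive replicate 3. By total counts Sept7 turned to -0.0024 in Anergic against Treg and 0.0060 in Teff against Naive, and Sept9 to -0.0248 in Anergic against Teff. The cause was not tested. With a library left out the Sept2 values ran from -0.1622 to 0.0043 in Anergic against Naive, from -0.0611 to 0.0755 in Teff against Naive, from -0.0338 to 0.1304 in Treg against Naive and from -0.0432 to 0.1071 in Treg against Teff, and Sept6 in Teff against Naive from -0.0527 to 0.0090. Septins called in Anergic against Treg, 2 in the reported fit, numbered 4 by DESeq2, 5 with the replicate block and 1 to 3 with a library left out. The block adds Sept1, Sept6 and Sept7. Counts of calls over all genes stayed within 1.5 times of the reported ones in every alternative. The labels give no shared origin for equal replicate numbers. Deviations from subset means correlated at -0.0485 to 0.184 (median 0.065) between the 18 pairs of libraries with the same number, above 0.1 in 4. Between the 36 pairs with different numbers they correlated at -0.1993 to 0.1708 (median -0.0437), above 0.1 in 1. Same-number libraries were thus slightly more alike at the median. The replicate block raised the calls over all genes from 7507 to 8055 in the test of 4 subsets. The reported fit does not pair the libraries, and a shared origin of equal numbers was not tested. Depth limits Sept10, with 43 counts in all, and the Naive level of Sept8.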
